A study of Mus musculus with 12 samples.

Results

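Srrm2 encodes a large serine- and arginine-rich scaffold protein of nuclear speckles, the nuclear bodies where splicing factors gather, and it associates with the spliceosome. The genes described here are 9 less studied genes that were picked because their counts shifted in cells depleted of Srrm2, out of 42450 genes in the deposited table. They were chosen by symbol, from a list of 10 names, of which B930041F14Rik is an older symbol of Fndc10 and leads to the same row. The choice used the knockdown and time contrasts of these same libraries, so the values under those contrasts are a description. No p-value is printed for a single one of the 9 genes there, and counts of calls stand beside those over all genes with nothing read from them. All 9 genes passed the filter on low counts that left 19410 genes for testing.

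The study transfected wild-type cells of the mouse embryonic stem cell (ESC) line E14tg2a.4 with 50 nM small interfering RNA (siRNA). E14tg2a.4 is a single line, kept with leukaemia inhibitory factor (LIF). The siRNA duplexes were directed at Srrm2 (Srrm2-KD) or, as the control, at firefly luciferase Gl2, which mouse cells do not carry (Gl2-KD). Cells were collected 24 h or 72 h after transfection, and those kept for 72 h had a second dose of the same duplexes in between. PolyA+ RNA was sequenced in 3 experiments for each of the 4 groups, so there are 12 libraries, and every group shares the parental line, the serum-free medium, LIF and the transfection reagent. No untransfected cells were analysed here, so a change from 24 h to 72 h includes time in culture and the second transfection, which cannot be told apart.

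The libraries held between 73933196 and 153343831 estimated counts. Levels are given below as CPM, the counts scaled to a common library size with edgeR's trimmed mean of M-values (TMM) factors, and fold changes are on the log2 scale with the standard error (SE) of the fit. In experiments 1, 2 and 3, Srrm2 itself stood at 911, 496 and 449 CPM in Gl2-KD cells of 24 h and at 517, 154 and 200 CPM in their Srrm2-KD partners, and the fold changes were -1.22 ± 0.14 at 24 h and -1.16 ± 0.14 at 72 h (edgeR adjusted p = 0.066 and 0.099). Every experiment had less Srrm2 under its own siRNA at either time, although the Srrm2-KD level of experiment 1 was above the Gl2-KD level of experiment 3. The 8 ESC markers, which include Pou5f1, Sox2 and Nanog, summed to between 4863 and 7605 CPM, against 1.69 to 3.03 CPM for 5 primitive endoderm markers, 3.28 to 21.2 CPM for 4 trophectoderm markers and 3.89 to 24.8 CPM for 6 fibroblast markers. In bulk RNA, fewer cells that express a gene and less RNA of it in each cell cannot be told apart.

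Of the 9 genes, 7 are protein coding. Pced1a encodes a protein with a PC-esterase domain, and Fndc10 a protein with a fibronectin type III domain, both of little known function. Nckipsd binds the adaptor NCK and promotes actin nucleation by the Arp2/3 complex, Slc52a2 is a plasma membrane transporter of riboflavin (vitamin B2), and Mmp23 is a membrane-anchored metalloproteinase. Myo3b is a class III unconventional myosin that carries a kinase domain and is known from actin-rich protrusions of sensory cells. Accsl resembles the plant enzyme that makes the precursor of ethylene, and its role in mammals is not established. Gm4890 is a long noncoding RNA gene and Gm10925 is a nuclear copy of a mitochondrial gene.

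In the mouse build GRCm38, Pced1a lies at chr2:130417247-130424701 on the minus strand and Nckipsd at chr9:108808368-108818844 on the plus strand. Slc52a2 lies at chr15:76538832-76544608 on the plus strand. Fndc10, a single-exon gene at chr4:155694342-155696481 on the plus strand, and Mmp23, at chr4:155650655-155653384 on the minus strand, are neighbours with Mib2 between them. Myo3b spans chr2:70039126-70429198 on the plus strand with 35 exons in its longest transcript, and Accsl lies at chr2:93855361-93869157 on the minus strand. Gm4890 lies at chr8:79295123-79308961 on the plus strand and Gm10925 at chr1:24613974-24614651 on the minus strand.

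Sequence is printed here for both noncoding loci. For Gm10925 it sets what the counts can show, and for Gm4890 it is the stretch between its start and that of a neighbour. Gm10925 is annotated as an unprocessed pseudogene of 678 nt, and all 678 bases were identical to the first 678 of the 681 bases of mt-Atp6, which encodes a subunit of the mitochondrial ATP synthase. Their ends, from base 619, differ by the last 3 bases of mt-Atp6, in capitals.

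Gm10925: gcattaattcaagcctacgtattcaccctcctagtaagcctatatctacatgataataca
mt-Atp6: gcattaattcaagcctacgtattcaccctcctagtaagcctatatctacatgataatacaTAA

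Kallisto, in its usual setting, assigns reads by their 31-base words. None of the 648 such words of Gm10925 was particular to it, since 100.0% were found in mt-Atp6, while 3 of the 651 words of mt-Atp6 were absent from Gm10925. The counts of this pair are therefore a split of one pool of reads. The other 8 members shared between 0.0% and 4.56% of their words with another gene. The highest of these was Myo3b, mainly with Gm17867. Pced1a overlaps the oppositely transcribed Vps16 by 363 bases at their 5′ ends and shared 80 of its 5235 words with it.

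Gm4890 is annotated as a noncoding RNA from a bidirectional promoter. In GENCODE M21 its start lies 185 bases from that of Mmaa, which encodes a mitochondrial protein of vitamin B12 metabolism and is transcribed the other way. The stretch between these GENCODE starts, chr8:79294938-79295122 in GRCm38.p6 with bases from RefSeq, is shown on the plus strand with each CG in capitals.

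Mmaa to Gm4890: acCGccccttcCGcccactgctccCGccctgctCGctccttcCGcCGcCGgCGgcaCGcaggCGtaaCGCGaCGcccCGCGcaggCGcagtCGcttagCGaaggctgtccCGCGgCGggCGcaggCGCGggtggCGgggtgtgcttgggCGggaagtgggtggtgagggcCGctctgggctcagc

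It holds 27 CG dinucleotides in 185 bases and has a GC content of 76.8%. RefSeq places the start of Gm4890 inside that stretch. In the 250 bases before the RefSeq start there are 41 CG, and 99.1% of the 32851 promoter windows in the RefSeq table hold as many or fewer. RefSeq promoter windows were found for 6 of the 9 genes. Among the other matched genes the count was 25 for Nckipsd, 16 and 18 for the 2 windows of Pced1a, 13 and 18 for those of Mmp23, 6 for Myo3b, and 0, 5 and 1 for the 3 windows of Accsl, against a median of 6 over all windows. Pced1a, Nckipsd and Mmp23, which were lower in Srrm2-KD, lay above that median, as did Gm4890, which was higher. The median was not limited to tested genes, so nothing is read from this.

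**Figure D1:**
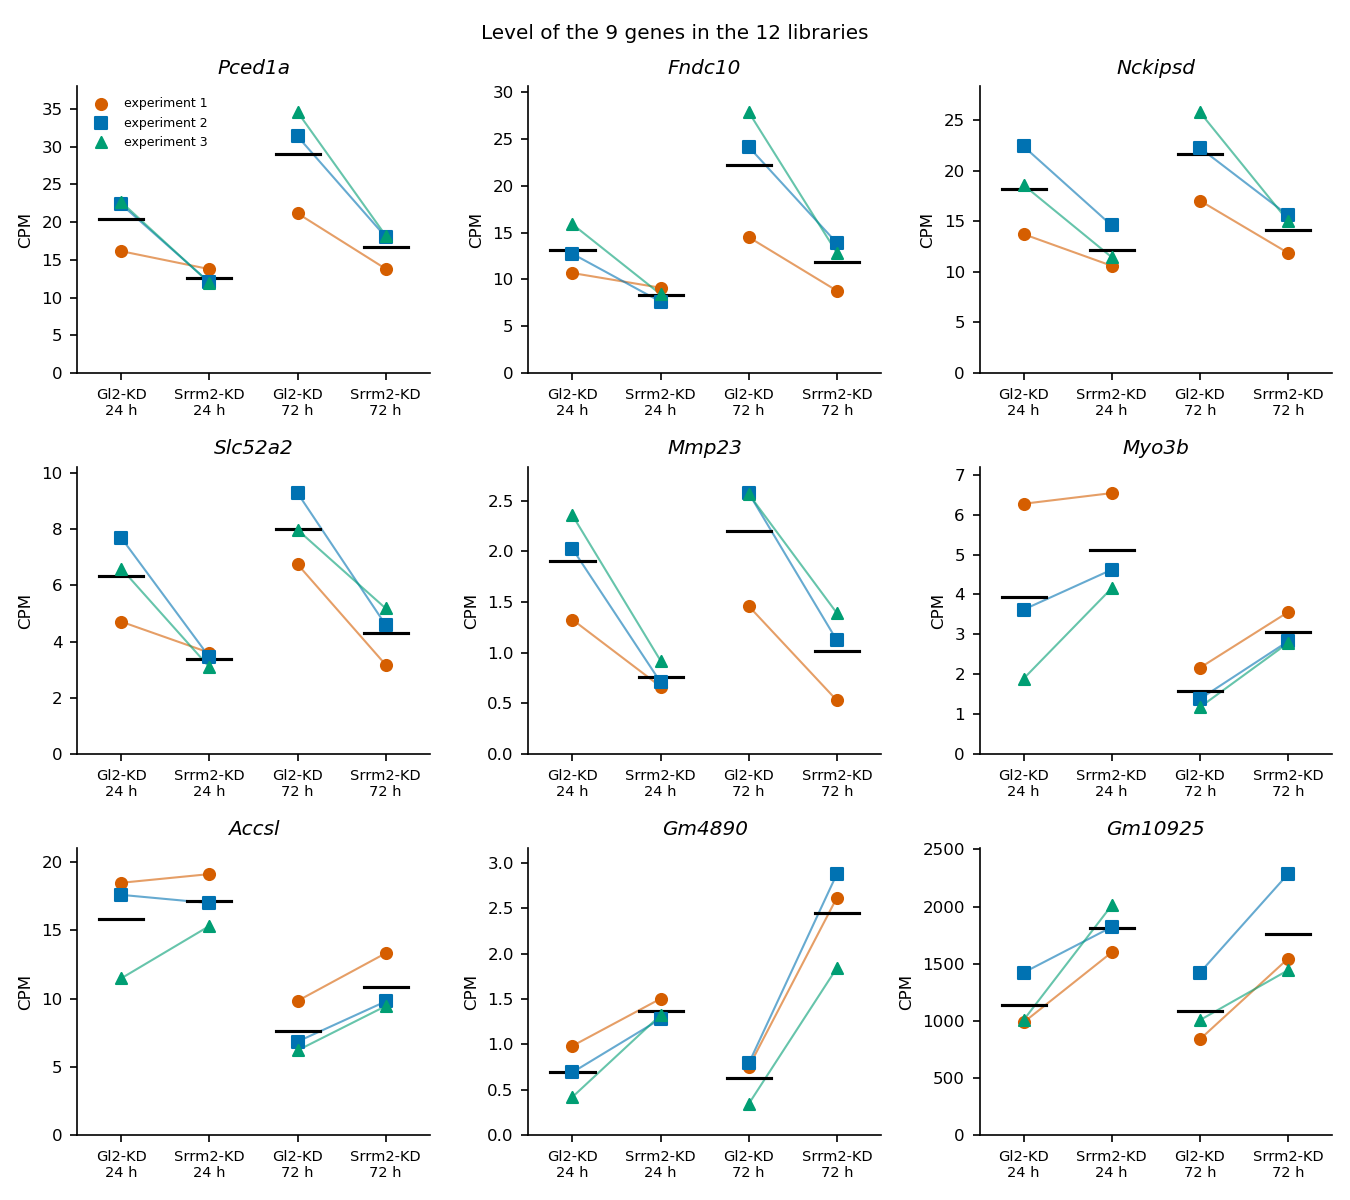
Level (CPM, linear axis from 0) of each of the 9 genes in the 12 libraries, by group; colours and symbols mark the experiment, lines join the Gl2-KD and Srrm2-KD libraries of the same experiment and time, and black bars are group means (n = 3). Pced1a, Fndc10, Nckipsd, Slc52a2 and Mmp23 lay lower in Srrm2-KD in every experiment at both times, while Myo3b, Gm4890 and Gm10925 lay higher.

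The first question was what Srrm2-KD did at matched time. Pced1a, Fndc10, Nckipsd, Slc52a2 and Mmp23 were lower than the control in each of the 3 experiments at 24 h and again at 72 h. Myo3b, Gm4890 and Gm10925 were higher in each experiment at both times, and Accsl was higher in 2 of 3 at 24 h and in 3 of 3 at 72 h. Of all 19410 genes, 15.4% were lower and 17.3% higher in all 3 experiments at 24 h, and 23.1% and 18.8% at 72 h. The libraries of the siRNAs did not overlap for 4 lower genes (Pced1a, Fndc10, Slc52a2 and Mmp23) and 2 higher genes (Gm4890 and Gm10925) at 24 h, beside 1.55% and 1.89% of all genes, and for 5 lower and 3 higher genes at 72 h (all but Accsl), beside 3.67% and 2.99%.

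With edgeR's quasi-likelihood test, 0 of the 9 genes passed an adjusted p of 0.05 at 24 h or at 72 h, as did 0.0% of all genes tested at each time. At an unadjusted p under 0.05 there were 7 of the 9 genes at 24 h, beside 508 of all genes, and 9 at 72 h, beside 2498. DESeq2 called 5 of the 9 at 24 h, where it called 0.124% of all genes, and 9 at 72 h, where it called 2.76%. limma-voom called 0.0103% of all genes at 24 h with none of the 9 among them, and 0.0206% at 72 h with 1 of the 9, Gm4890. With experiment and time point combined as the block, edgeR called 9 of the 9 at 72 h and 3.73% of all genes, and in a fit of the 72 h libraries alone it called 7 and 1.78%. Without Srrm2-KD 24 h replicate 1 edgeR called 1 of the 9 at 24 h (Pced1a) and 3 at 72 h, and without Srrm2-KD 24 h replicate 3 it called 2 at 72 h, in fits that called 10, 42 and 55 of all genes. Since these contrasts chose the genes, nothing is read from the counts.

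Pced1a stood at 16.2, 22.3 and 22.6 CPM in experiments 1, 2 and 3 of Gl2-KD at 24 h, and Srrm2-KD had 13.8, 12.01 and 11.9 CPM. After 72 h the control had 21.2, 31.4 and 34.6 CPM, and Srrm2-KD 13.8, 18.0 and 18.2 CPM. The siRNAs did not overlap at either time. The log2 fold change was -0.66 ± 0.16 (SE) at 24 h and -0.79 ± 0.16 at 72 h, and in experiment 1 at 24 h it was -0.23. The order of the group means was Gl2-KD at 72 h (29.0 ± 7.01 CPM, SD, n = 3), Gl2-KD at 24 h (20.4 ± 3.67), Srrm2-KD at 72 h (16.7 ± 2.49) and Srrm2-KD at 24 h (12.6 ± 1.04). Only the last pair of neighbours in that order did not overlap.

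Fndc10 had the same order of groups. At 24 h the control had 10.7, 12.7 and 15.9 CPM, against 9.11, 7.62 and 8.41 CPM with Srrm2-KD. The 72 h control held 14.5, 24.2 and 27.9 CPM, against 8.79, 13.9 and 12.8 CPM with Srrm2-KD. The siRNAs did not overlap at either time, and the fold change was -0.60 ± 0.19 at 24 h and -0.89 ± 0.19 at 72 h. In the order of Pced1a, the means were 22.2 ± 6.89, 13.1 ± 2.62, 11.8 ± 2.69 and 8.38 ± 0.745 CPM (SD, n = 3), and every pair of neighbours overlapped.

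Nckipsd, the partner of NCK, had 13.7, 22.4 and 18.6 CPM in the 24 h control and 10.6, 14.6 and 11.4 CPM with Srrm2-KD. These overlapped, since Srrm2-KD of experiment 2 (14.6 CPM) lay above the control of experiment 1 (13.7 CPM). After 72 h the control held 17.0, 22.3 and 25.8 CPM, and Srrm2-KD 11.9, 15.6 and 15.04 CPM, with no overlap. Its fold change was -0.56 ± 0.13 at 24 h and -0.61 ± 0.13 at 72 h. The group means, again in the order of Pced1a, were 21.7 ± 4.40, 18.2 ± 4.35, 14.2 ± 2.01 and 12.2 ± 2.10 CPM (SD, n = 3), with overlap between all neighbours.

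Slc52a2, the riboflavin transporter, had 4.71, 7.69 and 6.60 CPM in the 24 h control and 3.60, 3.45 and 3.09 CPM with Srrm2-KD. The values after 72 h were 6.75, 9.29 and 7.98 CPM in the control and 3.18, 4.59 and 5.18 CPM with Srrm2-KD. There was no overlap at either time, and the fold change was -0.87 ± 0.20 at 24 h and -0.90 ± 0.20 at 72 h. In experiment 1 the difference at 24 h was -0.38, against -1.16 and -1.09 in experiments 2 and 3. The means ran in the same order as for Pced1a, at 8.01 ± 1.27, 6.33 ± 1.51, 4.32 ± 1.03 and 3.38 ± 0.264 CPM (SD, n = 3), and neighbours overlapped.

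Mmp23, the metalloproteinase, rested on 85.0 to 337 estimated counts in a library. The 24 h control had 1.33, 2.02 and 2.35 CPM and Srrm2-KD 0.665, 0.709 and 0.920 CPM. The 72 h control had 1.46, 2.57 and 2.57 CPM and Srrm2-KD 0.529, 1.12 and 1.39 CPM. The siRNAs were apart at both times, and the fold change was -1.27 ± 0.24 at 24 h and -1.17 ± 0.24 at 72 h, which is 41.5% and 44.5% of the control level. The group means, in the order of Pced1a, were 2.20 ± 0.641, 1.90 ± 0.525, 1.01 ± 0.441 and 0.765 ± 0.136 CPM (SD, n = 3), with overlap between neighbours.

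Myo3b, the class III myosin, had 6.27, 3.62 and 1.89 CPM in the 24 h control, its widest group, and 6.54, 4.62 and 4.16 CPM with Srrm2-KD. After 72 h the values were 2.16, 1.38 and 1.17 CPM in the control and 3.56, 2.82 and 2.78 CPM with Srrm2-KD. The siRNAs overlapped at 24 h and not at 72 h. The fold change was 0.47 ± 0.24 at 24 h, with 0.06, 0.35 and 1.13 in the 3 experiments, and 1.01 ± 0.24 at 72 h. The order of the means was Srrm2-KD at 24 h (5.11 ± 1.26 CPM, SD, n = 3), Gl2-KD at 24 h (3.93 ± 2.21), Srrm2-KD at 72 h (3.05 ± 0.435) and Gl2-KD at 72 h (1.57 ± 0.521), and only the last pair did not overlap.

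Accsl had 18.5, 17.6 and 11.5 CPM in the 24 h control and 19.1, 17.0 and 15.3 CPM with Srrm2-KD. After 72 h there were 9.83, 6.85 and 6.20 CPM in the control and 13.3, 9.79 and 9.45 CPM with Srrm2-KD. The siRNAs overlapped at both times. The fold change was 0.13 ± 0.14 at 24 h, within its SE, and 0.52 ± 0.14 at 72 h, where the 3 experiments gave 0.44, 0.51 and 0.61. The means followed the order of Myo3b, at 17.2 ± 1.90, 15.9 ± 3.81, 10.9 ± 2.15 and 7.63 ± 1.94 CPM (SD, n = 3), and all neighbours overlapped.

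Gm4890, the noncoding RNA, rested on 45.2 to 420 estimated counts in a library. The 24 h control had 0.983, 0.691 and 0.420 CPM and Srrm2-KD 1.503, 1.28 and 1.32 CPM. The 72 h control had 0.750, 0.789 and 0.343 CPM and Srrm2-KD 2.62, 2.88 and 1.84 CPM. Every Srrm2-KD library lay above every control library, and the 72 h Srrm2-KD libraries lay above those of 24 h. The fold change was 1.06 ± 0.28 at 24 h and 2.01 ± 0.28 at 72 h, the last being 4.02-fold. The group means were 2.44 ± 0.539 CPM with Srrm2-KD at 72 h, 1.37 ± 0.118 with Srrm2-KD at 24 h, 0.698 ± 0.282 in the 24 h control and 0.627 ± 0.247 in the 72 h control (SD, n = 3).

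The difference between the effects at 72 h and 24 h was 0.95 ± 0.39 for Gm4890 and was positive in each of the 3 experiments (1.18, 0.97 and 0.76). None of the 9 genes and 0.0% of all genes passed the adjusted threshold for it with edgeR, 319 genes had an unadjusted p under 0.05, DESeq2 called 2 genes and limma-voom 0.

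Mmaa, on the other side of the CG-rich stretch, had mean levels of 0.743 CPM (control) and 0.816 CPM (Srrm2-KD) at 24 h, and 0.942 and 0.716 CPM at 72 h. Its fold change was 0.16 ± 0.32 at 24 h and -0.42 ± 0.32 at 72 h, and neither passed the test (edgeR adjusted p = 1.0 and 0.62). Smad1, the next gene on the other side, 29433 bases away, had fold changes of 0.02 ± 0.13 and -0.04 ± 0.13.

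**Figure D2:**
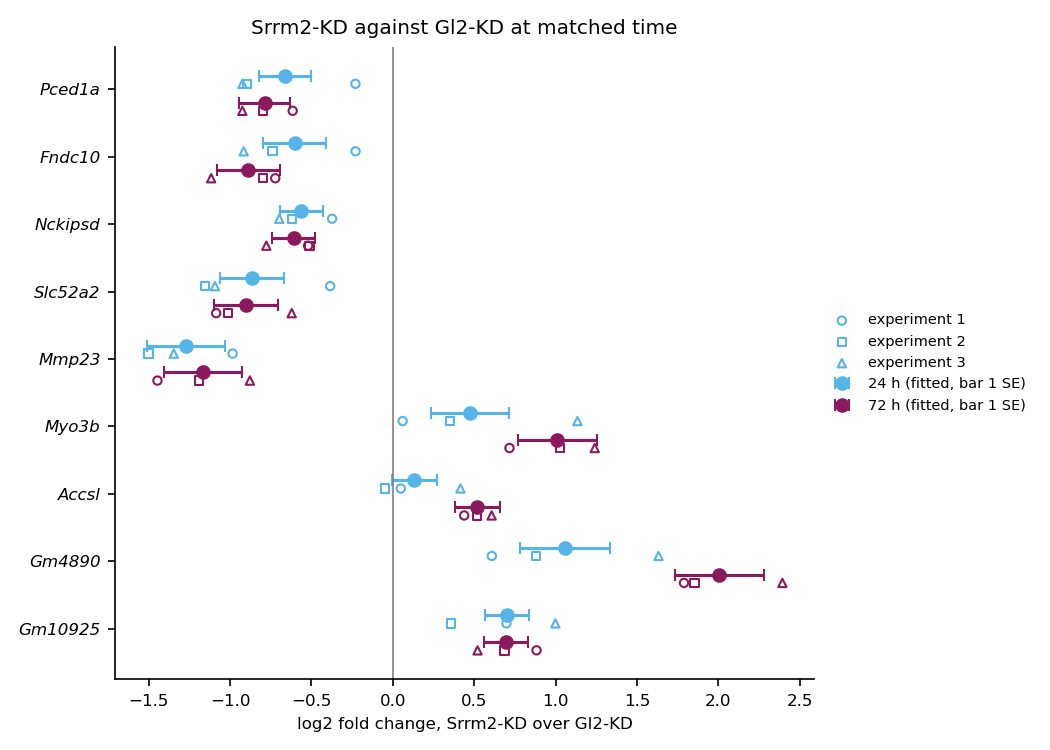
Log2 fold change of Srrm2-KD over Gl2-KD for each of the 9 genes at 24 h and 72 h; filled points are fitted values with 1 SE, and open symbols below them are the differences within experiments 1, 2 and 3. Of the filled points, Gm4890 at 72 h (2.01) lies farthest from 0. Among the open symbols of 24 h, the circles of experiment 1 lie nearest to 0 for Pced1a, Fndc10, Nckipsd, Slc52a2 and Mmp23.

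Gm10925, the mitochondrial copy, had 986, 1422 and 1007 CPM in the 24 h control and 1599, 1821 and 2011 CPM with Srrm2-KD. After 72 h there were 837, 1421 and 1006 CPM in the control and 1544, 2285 and 1442 CPM with Srrm2-KD. The siRNAs did not overlap at either time, and the fold change was 0.70 ± 0.13 at both. The means were 1810.3 ± 206 CPM with Srrm2-KD at 24 h, 1757 ± 460 with Srrm2-KD at 72 h, 1138 ± 246 in the 24 h control and 1088 ± 300 in the 72 h control (SD, n = 3), and the times overlapped within each siRNA. mt-Atp6, which shares all of its words, had fold changes of 0.06 ± 0.09 at 24 h and -0.09 ± 0.09 at 72 h.

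The share of the pooled counts of the pair that went to Gm10925 was 30.6% ± 4.81 in the 24 h control and 40.5% ± 7.09 with Srrm2-KD (SD, n = 3), and after 72 h it was 26.4% ± 7.65 and 37.7% ± 6.84. In each experiment the share was higher with Srrm2-KD at both times. The sum of the pair, which does not depend on the split, was higher in Srrm2-KD by 0.23, 0.23 and 0.39 on the log2 scale in experiments 1, 2 and 3 at 24 h and by 0.10, 0.25 and 0.12 at 72 h. The mean difference of the sum was 0.28 ± 0.09 (SD, n = 3) at 24 h and 0.16 ± 0.09 at 72 h, below the 0.70 of Gm10925 alone.

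Gm10925 lies in a run of 7 such copies on chromosome 1, which all share 97.2% to 100.0% of their words with their mitochondrial counterpart. The copies of mt-Nd4 and mt-Nd4l were listed at 0 in every library. The other 4 had fold changes between 0.19 and 0.32 at 24 h and between -0.17 and 0.19 at 72 h. The nearest copies, Gm28437 of mt-Co3 and Gm28661 of mt-Co2, had 0.20 ± 0.19 and 0.19 ± 0.12 at 24 h and -0.12 ± 0.19 and -0.17 ± 0.12 at 72 h. Of the 13 mitochondrially encoded protein genes, 12 had a positive fold change at 24 h and 12 at 72 h. Their medians were 0.22 and 0.21, beside medians of 0.01 and -0.02 over all genes, and none passed the test. Those with a copy that received counts are part of a split pool, as mt-Atp6 is, so their fold changes depend on the split.

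**Figure D3:**
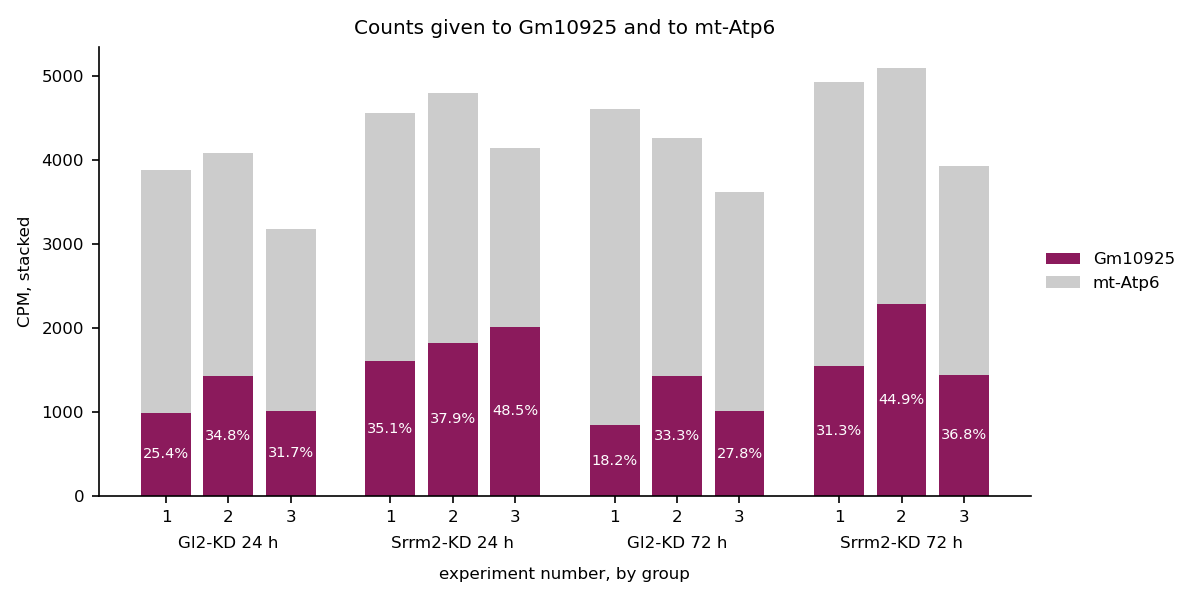
Stacked bars of CPM given to Gm10925 (dark) and to mt-Atp6 (grey) in each library, by group and experiment, with the share of Gm10925 printed in percent. The dark share ran from 18.2% to 34.8% in the Gl2-KD libraries and from 31.3% to 48.5% in the Srrm2-KD libraries.

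The second question was what changed with time. In Gl2-KD, Accsl was lower at 72 h than at 24 h by -1.06 ± 0.14 and Myo3b by -1.25 ± 0.24, each in 3 of 3 experiments. These were the 2 of 9 genes called, beside 1.45% of all genes. DESeq2 called Fndc10 as well, with 6.69% of all genes, limma-voom called these 2 genes, with 2.48%, and a fit of Gl2-KD alone called Accsl, with 0.872%. The libraries of the 2 times did not overlap for 1 lower gene, Accsl, and for 0 higher genes, beside 3.36% and 3.91% of all genes. They overlapped for Myo3b, whose experiment 3 at 24 h (1.89 CPM) lay under experiment 1 at 72 h (2.16 CPM). Pced1a (0.50 ± 0.16), Fndc10 (0.74 ± 0.19), Slc52a2 (0.35 ± 0.20) and Mmp23 (0.21 ± 0.24) were higher at 72 h in 3 of 3 experiments, as were 20.2% of all genes, and Nckipsd (0.26 ± 0.13) in 2 of 3. Gm4890 (-0.15 ± 0.28) and Gm10925 (-0.08 ± 0.13) lay within their SE of 0, as did Mmp23.

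These calls rested on the block and on single libraries. With no replicate block edgeR called 0 of the 9 genes and 0 of all genes, of which 744 had an unadjusted p under 0.05. Leaving out Gl2-KD 24 h replicate 1, Gl2-KD 24 h replicate 2, Gl2-KD 72 h replicate 2 or all of experiment 2 left 0 of the 9, in fits that called 2, 3, 0 and 0 of all genes (with 2961, 2002, 2073 and 1383 at an unadjusted p under 0.05). Leaving out Gl2-KD 72 h replicate 1 or 3, Srrm2-KD 24 h replicate 2 or Srrm2-KD 72 h replicate 2 left 1, Accsl, with 269, 60, 101 and 224 of all genes. Leaving out Srrm2-KD 24 h replicate 1 gave 4, with Pced1a and Fndc10 added, and 387 of all genes.

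In Srrm2-KD 0 of the 9 genes were called with time, beside 0.551% of all genes. At an unadjusted p under 0.05 there were 5 of the 9, beside 3156 of all 19410 genes. DESeq2 called Accsl and Myo3b there, where it called 5.43% of all genes, and limma-voom called Accsl, with 1.33% of all genes. The change from 24 h to 72 h was -0.67 ± 0.14 for Accsl and -0.71 ± 0.24 for Myo3b, both lower in 3 of 3 experiments. Gm4890 was higher at 72 h by 0.80 ± 0.27 in 3 of 3 experiments, and Pced1a by 0.38 ± 0.16, also in 3 of 3 but by only 0.0047 in experiment 1. The libraries of the 2 times did not overlap for these 2 lower and 2 higher genes, beside 3.9% and 3.58% of all genes. Fndc10 (0.45 ± 0.19), Slc52a2 (0.31 ± 0.20) and Mmp23 (0.31 ± 0.24) were higher in experiments 2 and 3 and lower in experiment 1. Nckipsd had 0.21 ± 0.13 and Gm10925 -0.08 ± 0.13.

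Markers of two-cell-like cells, a rare state of ESC cultures that resembles the two-cell embryo, moved with time beside Accsl and Myo3b. Their 5 genes summed to 3.73 to 16.6 CPM in Gl2-KD at 24 h and 1.98 to 2.36 CPM at 72 h, and to 5.24 to 17.5 CPM and 2.84 to 5.87 CPM in Srrm2-KD. Zscan4c (-2.20 ± 0.44), Zscan4d (-2.27 ± 0.32) and Usp17lc (-2.57 ± 0.47) were lower at 72 h in Gl2-KD (edgeR adjusted p = 0.047, 0.016 and 0.033), which makes 3 of 5 called, beside 1.45% of all genes. In Srrm2-KD 1 of 5 was called, Zscan4d (-1.98 ± 0.32, edgeR adjusted p = 0.044), beside 0.551%. None of the 5 was at 0 throughout. Of the 4 trophectoderm markers, 1, Krt7, was called higher at 72 h with each siRNA, beside 1.45% of all genes in Gl2-KD and 0.551% in Srrm2-KD. In Gl2-KD 2 of the 4 had a positive and 2 a negative fold change, and in Srrm2-KD 3 and 1. The part of these cells in the values of Accsl and Myo3b was not tested.

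**Figure D4:**
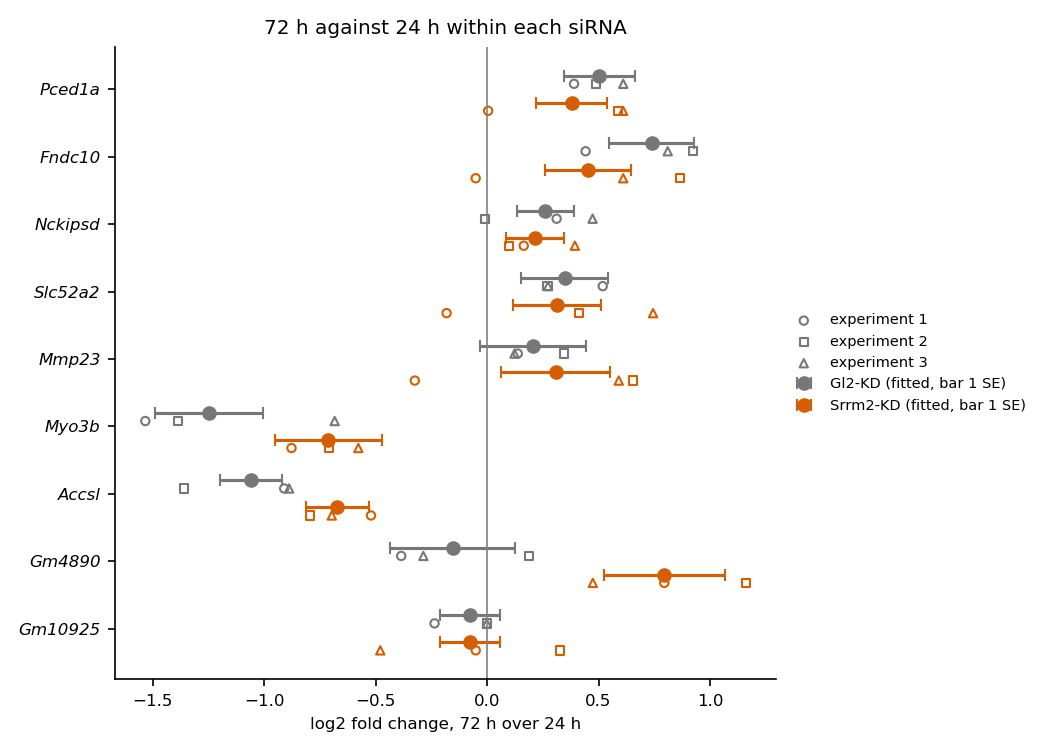
Log2 fold change of 72 h over 24 h for each gene in Gl2-KD (grey) and Srrm2-KD (orange); filled points are fitted values with 1 SE, and open symbols below them are the differences within experiments 1, 2 and 3. Accsl and Myo3b lie below 0 in both, and Gm4890 lies at -0.15 in Gl2-KD and 0.80 in Srrm2-KD.

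The matched-time and time values add up. The comparison of Srrm2-KD at 24 h with Gl2-KD at 72 h, which mixes both, equals the effect at 24 h minus the change with time in Gl2-KD. It gave larger differences than any of the matched comparisons for 8 of the 9 genes, all but Gm4890. With edgeR 9 of the 9 were called, beside 4.04% of all genes, and 0 with no replicate block, where 1121 of all genes had an unadjusted p under 0.05. This comparison combines contrasts that chose the genes and may itself have served in the choice, so nothing is read from these counts. The libraries did not overlap for 5 lower and 4 higher genes, beside 5.49% and 5.28% of all genes. For Accsl (1.19 ± 0.14), 11.1% of the difference was present at matched 24 h, and for Myo3b (1.72 ± 0.24) 27.5%. The share was 44.9% for Fndc10 (-1.34 ± 0.19), 56.9% for Pced1a (-1.17 ± 0.16), 68.2% for Nckipsd (-0.82 ± 0.13) and 71.2% for Slc52a2 (-1.22 ± 0.20). It was 86.0% for Mmp23 (-1.48 ± 0.24), 87.2% for Gm4890 (1.21 ± 0.28) and 90.1% for Gm10925 (0.78 ± 0.13). These shares depend on the time that is matched. With the effect at 72 h instead, they were 43.6% for Accsl, 58.6% for Myo3b, 66.2% for Fndc10 and 67.5% for Pced1a. They were 74.0% for Nckipsd, 74.1% for Slc52a2, 79.2% for Mmp23 and 89.9% for Gm10925. For Gm4890 the effect at 72 h was larger than the cross-time difference (165.7%). The 9 calls came to 0 without Gl2-KD 72 h replicate 2 or all of experiment 2, where edgeR called 0 of all genes (with 2651 and 1828 at an unadjusted p under 0.05). They came to 1 without experiment 3 (62 of all genes), to 2 without Srrm2-KD 24 h replicate 2 (23) and to 4 without Srrm2-KD 24 h replicate 3 (144), against 785 of all genes with every library.

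The third comparison was not among the contrasts that chose the genes, although they were picked with results of these libraries known. Experiment 1 was set against experiments 2 and 3 over all 4 groups, and 7 of the 9 genes were called, beside 53.4% of all genes. Mmp23 (-0.75 ± 0.18, edgeR adjusted p = 0.0055), Nckipsd (-0.43 ± 0.10, 0.0035), Fndc10 (-0.41 ± 0.14, 0.037), Pced1a (-0.32 ± 0.12, 0.046) and Gm10925 (-0.33 ± 0.10, 0.019) were lower in experiment 1. Myo3b (0.74 ± 0.18, edgeR adjusted p = 0.0046) and Accsl (0.42 ± 0.10, 0.0055) were higher. Slc52a2 (-0.35 ± 0.15) and Gm4890 (0.43 ± 0.21) did not pass (edgeR adjusted p = 0.070 and 0.10). Srrm2 was higher in experiment 1 by 1.20 ± 0.11 (edgeR adjusted p = 4.3e-06). Since 1 experiment was set against 2, these SEs and p-values measure the spread between libraries and not that between experiments.

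The call of Pced1a was lost without any one of Gl2-KD 24 h replicates 1, 2 and 3, Gl2-KD 72 h replicates 1, 2 and 3 or Srrm2-KD 72 h replicates 1, 2 and 3, with adjusted p between 0.056 and 0.18. That of Fndc10 was lost without Gl2-KD 24 h replicate 1 or 3, any one of the 3 Gl2-KD 72 h replicates, or Srrm2-KD 72 h replicate 1 or 2, with adjusted p between 0.055 and 0.15, and that of Gm10925 without Gl2-KD 72 h replicate 1, at 0.080. Without experiment 2 the calls of Pced1a, Fndc10 and Gm10925 were lost, and without experiment 3 those of Pced1a, Fndc10 and Accsl, which left 4 each time, as did leaving out Gl2-KD 72 h replicate 1. Slc52a2 passed without Srrm2-KD 24 h replicate 1 (0.011) or 3 (0.038), and Gm4890 without Srrm2-KD 24 h replicate 3 (0.038).

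The genes differed in base composition and introns. The choice did not use these features directly, but the knockdown fold changes that it used varied with both over all tested genes. Fndc10 has a transcript GC of 62.9%, higher than 98.8% of the 19314 tested genes with a gene model, Mmp23 58.6% (higher than 92.5%), Nckipsd 58.0% (90.8%), Slc52a2 53.8% (72.1%) and Pced1a 52.3% (64.3%). Accsl (49.9%), Myo3b (47.0%), Gm4890 (46.9%) and Gm10925 (36.1%) lay nearer to or under the median of 49.5%. The median intron was 105 nt in Slc52a2 and in Mmp23, 162.5 nt in Nckipsd and 202 nt in Pced1a, shorter than in all but 1.53%, 1.53%, 4.70% and 6.93% of the tested genes with introns. It was 778 nt in Accsl, 1879 nt in Myo3b and 5028 nt in Gm4890, beside a median of 1551 nt, and Fndc10 and Gm10925 have no intron. The genes that were lower in Srrm2-KD were those of higher GC, with short introns or none, while Gm10925, also without an intron, was higher. Given the choice, nothing is read from this.

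Over all tested genes, the median fold change at 72 h ran from 0.06 in the lowest of 5 equal groups by GC to -0.15 in the highest, and at 24 h from 0.02 to -0.05. Between experiment 1 and the others it ran from 0.36 to -0.29. With offsets for GC and transcript length in the same blocked fit, the fold changes at 72 h were -0.74 for Pced1a, -0.67 for Fndc10, -0.45 for Nckipsd, -0.79 for Slc52a2 and -1.08 for Mmp23, and 1.03, 0.48, 1.98 and 0.45 for Myo3b, Accsl, Gm4890 and Gm10925. All 9 kept their sign. Between the experiments, the same offsets took Fndc10 to 0.12, Mmp23 to -0.16, Nckipsd to -0.15 and Myo3b to 0.19, none of which passed (edgeR adjusted p = 0.46, 0.47, 0.10 and 0.41), and Pced1a to -0.24, which no longer passed (edgeR adjusted p = 0.098). With the offsets 3 of the 9 genes were called, Accsl, Gm10925 and Slc52a2 (-0.47, edgeR adjusted p = 0.015), beside 8803 of all genes.

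**Figure D5:**
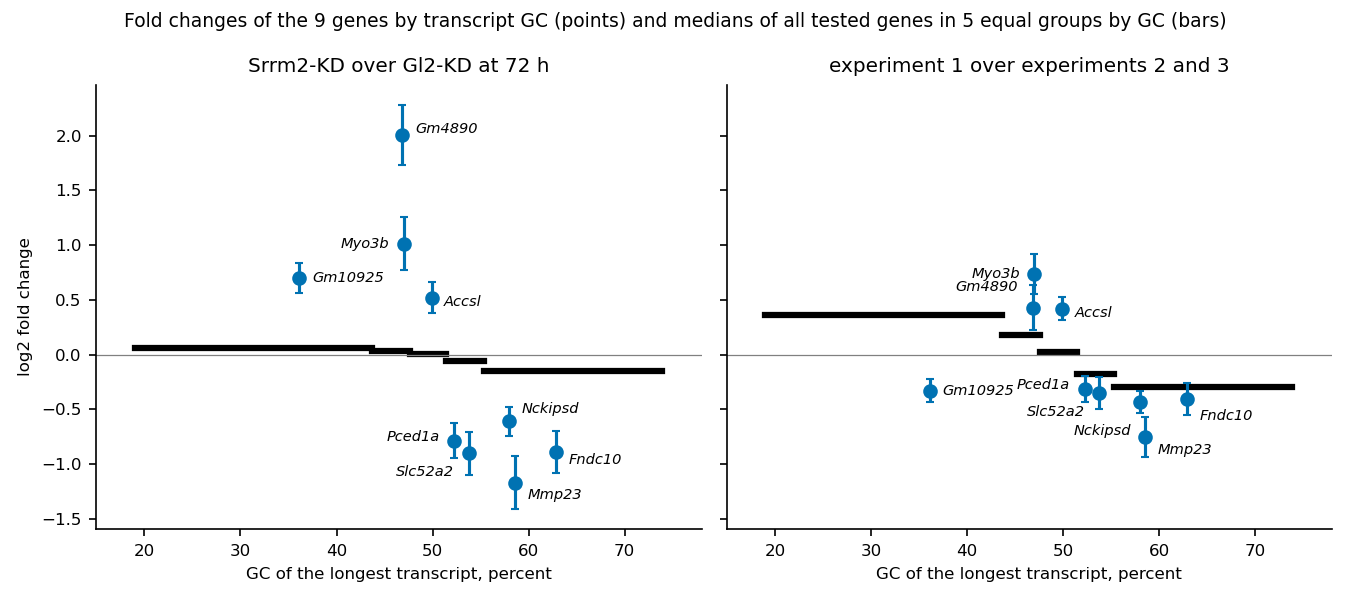
Log2 fold change of each of the 9 genes (points, bars 1 SE) against the GC content of its longest transcript, for Srrm2-KD over Gl2-KD at 72 h (left) and experiment 1 over experiments 2 and 3 (right); black segments are the medians of all tested genes in 5 equal groups by GC. The medians run from 0.06 to -0.15 on the left and from 0.36 to -0.29 on the right, and the 9 points on the left lie from -1.17 to 2.01.

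Relatives and partners by role were compared in the same fit. At matched time none of their tested genes was called, as 0 of all 19410 genes were, so only values are described. Pced1b, the paralog of Pced1a, had 0.43 ± 0.30 at 24 h and 0.21 ± 0.30 at 72 h. Of the FNDC family, 7 of 10 were tested and their median was -0.32 at 24 h and -0.17 at 72 h. Fndc4, a secreted family member, had -0.72 ± 0.17 and -0.53 ± 0.17 and was called in the cross-time comparison (-0.75 ± 0.17, edgeR adjusted p = 0.036). The 16 genes of NCK, N-WASP and the Arp2/3 complex had medians of -0.03 and -0.09, with Wipf3, a WASP-interacting protein, called in the cross-time comparison (-0.89 ± 0.21, edgeR adjusted p = 0.044).

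Slc52a3, the other mouse riboflavin transporter, had -0.13 ± 0.19 at 24 h and -0.48 ± 0.19 at 72 h, and Rfk and Flad1, which turn riboflavin into its cofactors, had -0.12 ± 0.09 and -0.22 ± 0.10 at 72 h. The 17 tested metalloproteinases and their inhibitors had medians of 0.08 and 0.03, and the 23 unconventional myosins and partners -0.02 and -0.23. Myo3a, the paralog of Myo3b, was at 0.053 to 0.180 CPM and had 0.32 ± 0.61 and -0.23 ± 0.62. Accs, which lies 5417 bases from Accsl, had 0.27 ± 0.19 and 0.31 ± 0.19, higher in 3 of 3 experiments at both times. mt-Nd2 was called in the cross-time comparison (0.44 ± 0.11, edgeR adjusted p = 0.049).

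In the comparison of experiments, where 53.4% of all genes were called, 4 of 7 FNDC genes were called, 2 higher and 2 lower (Fndc3a, Fndc3b, Fndc3c1 and Fndc4), 12 of 16 actin nucleation genes, 4 higher and 8 lower (Wasl, Wipf2, Wipf3, Actr2, Actr3, Arpc1a, Arpc1b, Arpc2, Arpc3, Arpc5, Arpc5l and Diaph1), 3 of 3 flavin genes, 1 higher and 2 lower (Slc52a3, Rfk and Flad1) and 5 of 17 metalloproteinase genes, 2 higher and 3 lower (Mmp2, Mmp16, Mmp28, Timp1 and Timp2). All 13 mitochondrially encoded genes were called there, 9 higher and 4 lower.

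As 0 of all genes were called at matched time, the neighbours of the 9 genes are described by their values. Around Fndc10 and Mmp23, Mib2, which lies 25143 bases from Fndc10 and 1292 from Mmp23, had -0.11 ± 0.14 at 24 h and -0.17 ± 0.14 at 72 h, Cdk11b 0.09 ± 0.10 and 0.04 ± 0.10, and Ssu72 0.03 ± 0.09 and -0.10 ± 0.09. Fbxl6, whose gene begins 85 bases from Slc52a2 on the other strand, had -0.11 ± 0.16 and -0.10 ± 0.16, and Adck5 on the other side 0.09 ± 0.12 and 0.15 ± 0.12. Vps16, which overlaps Pced1a, had 0.03 ± 0.11 and 0.04 ± 0.11, and Cpxm1 -0.10 ± 0.23 and -0.18 ± 0.23. Beside Nckipsd, Ip6k2 had -0.03 ± 0.14 and -0.10 ± 0.14 and Gm35025 -0.39 ± 0.45 and 0.20 ± 0.44. Beside Myo3b, Ubr3 had -0.06 ± 0.10 and -0.07 ± 0.10 and Rpl9-ps7 0.58 ± 0.57 and 0.17 ± 0.56, and Gm13889 beside Accsl had 0.26 ± 0.41 and -0.55 ± 0.43.

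Over the 12 libraries, with the mean of each experiment removed, the pairwise Pearson correlations of log2 CPM among Pced1a, Fndc10, Nckipsd, Slc52a2 and Mmp23 ran from 0.865 to 0.979, that of Myo3b and Accsl was 0.918 and that of Gm4890 and Gm10925 0.859. Accsl and Gm4890, which were both higher in Srrm2-KD, had 0.146. These values describe libraries that share groups, and effects of base composition were not removed. They also run over the knockdown and time differences that chose the genes, so high values among genes that moved together were built in. The genes of most similar profile were Taz and Inpp5k for both Pced1a (0.985 and 0.984) and Fndc10 (0.982 and 0.988), Sec61a2 (0.959) and Araf (0.955) for Nckipsd, BC037034 (0.979) and Araf (0.977) for Slc52a2, and Haghl (0.982) and Slc52a2 (0.973) for Mmp23. Taz, which acts on the mitochondrial lipid cardiolipin, had -0.57 ± 0.15 at 24 h and -0.76 ± 0.15 at 72 h, and Haghl -1.36 ± 0.24 and -1.41 ± 0.24. For Myo3b they were Ptgr1 (0.982) and Parp14 (0.973), for Accsl Sned1 (0.983) and Zp3 (0.982), an egg coat protein that was lower at 72 h in Gl2-KD by -1.77 ± 0.24, for Gm4890 Spa17 (0.969) and Tars2 (0.967), and for Gm10925 Pyurf (0.942) and 1700012C14Rik (0.927).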

How the data were processed

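PolyA+ libraries were sequenced as 100-base pairs on a NovaSeq. The authors pseudo-aligned the reads with Kallisto 0.46.1 to the GENCODE M24 mouse transcriptome (mm10) and deposited estimated counts per gene, not normalized. How transcript estimates were summed per gene, and the strand setting, are not given in the sources used here. Reads shared by near-identical genes are split by such a model.

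Estimated counts were rounded. Genes were filtered with filterByExpr (minimum count 10, total 15; 19410 of 42450 genes left), scaled by TMM and fitted in 1 model of 12 libraries with edgeR 4.0.16 (R 4.3.3; glmQLFit with legacy=TRUE, glmQLFTest) and Benjamini-Hochberg adjustment over all genes at 0.05. The study used the RNA processing day as a covariate; here the experiment number stood in as a block. Libraries of the same experiment deviated together, with r from 0.281 to 0.747 in 18 pairs. The study describes its 3 replicates as biological; nothing used here tells how separate the cultures within an experiment were, so p-values measure the spread between these libraries. Within-experiment differences are of log2(CPM + 0.01), and profiles were compared on log2(CPM + 0.5).

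The members and the lists of relatives were chosen with earlier results of these data known. Named beside the members were Srrm2, listed relatives called in a comparison, paralogs, the nearest tested gene on either side within 100 kb and the 2 genes of most similar profile. Positions, GC and introns came from GENCODE M21 (GRCm38); 294 table genes had no match there. Alternatives were DESeq2 1.42.0, limma 3.58.1 (voom), other scalings, filters and blocks, GC and length offsets, and leaving out each library or experiment. The fit was tested on simulated counts. The calls of the myosin list between experiments are not reported here.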

Additional observations from a re-analysis of the deposited data

How the results depend on the processing

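Each comparison was refitted with other tools, scalings, filters and blocks and without each library or experiment. The number of the 9 genes called is given, with the number of all genes called in the same fit in parentheses. Knockdown at 24 h: 5 with DESeq2 (24), and 0 to 1 with a library or experiment left out (0 to 10). Knockdown at 72 h: 9 with DESeq2 (535), 1 with limma-voom (4), 1 with the newer glmQLFit, legacy=FALSE (5), 2 with genes of low counts kept (42), 9 with the replicate block made of experiment and time point (724), 7 with 72 h fitted alone (323), and 0 to 3 with a library or experiment left out (0 to 55). Time in Gl2-KD: 0 with no replicate block (0), 0 with experiment 1 against the others as batch (0), 1 with Gl2-KD fitted alone (158), and 0 to 4 with a library or experiment left out (0 to 387). Time in Srrm2-KD: 2 with DESeq2 (1053), 1 with limma-voom (259), 1 with legacy=FALSE (279) and 1 with GC and length offsets (209). Srrm2-KD at 24 h against Gl2-KD at 72 h: 0 with no replicate block (0), 0 with experiment 1 as batch (2), and 0 to 9 with a library or experiment left out (0 to 1732). Experiment 1 against the others: 4 with experiment 1 as batch (8793), 3 with GC and length offsets (8803), 5 with library totals only (10192; Pced1a, Fndc10 and Gm10925 lost, Gm4890 gained), and 4 to 9 with a library or experiment left out (8619 to 10341). Fndc10 reversed between experiments, to 0.12, with GC and length offsets. The cause of these differences was not tested. Fits without a library or experiment have fewer samples, and some of them called fewer genes and some more. The low counts of Gm4890 and Mmp23, and the 3 experiments per group, limit the precision.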
